A study of Homo sapiens with 2 samples.

Results

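Replication-dependent and linker histone genes were examined in VMRC-LCD cells after knockdown of the lncRNA *DRAIC*. VMRC-LCD is a lung adenocarcinoma cell line with neuroendocrine (NE) differentiation. The cells were transfected with siRNA no2 against *DRAIC* (si-*DRAIC*2, 20 nmol/L) or with a negative control siRNA (si-NC, 20 nmol/L), and RNA was taken after 72 h. Each condition was measured on 1 Human Clariom S array, so no difference can be set against the spread of replicates and p-values are not given. The members were all rows whose annotated symbol is that of a numbered linker histone (H1) or a clustered H2A, H2B, H3 or H4 gene. This gave 64 of the 21448 transcript clusters on the array, namely 9 H1, 14 H2A, 17 H2B, 9 H3 and 15 H4 genes, each with 1 row. Of 73 RefSeq genes with such symbols, 9 were not paired with a row and were not analysed here.

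Histones package DNA into nucleosomes, in which H2A, H2B, H3 and H4 form the core and H1 binds the linker DNA. Replication-dependent histone genes lie in clusters, lack introns and are transcribed in S phase, and most of their mRNAs end in a stem-loop in place of a poly(A) tail. The stem-loop binding protein SLBP and the U7 snRNP direct the 3′ end processing, and the coactivator NPAT drives transcription. Several of these genes encode the same protein, as nearly all H4 genes do, so their mRNAs are alike in sequence. Not every member is replication-dependent: *H1-10* is expressed outside S phase, and *H1-6*, *H1-7* and *H1-8* are linker histone genes of the germline. *H2AC25*, *H2BC26* and *H4C16* have the older names H2AW, H2BU1 and H4-16 and are also counted among replication-independent histone genes.

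The promoters carry short motifs that differ by histone type, and these are shown because the members are compared by type and by shared promoter. Promoter windows (250 bases before and 50 bases after the start) were taken from RefSeq (GRCh38.p14) and were found for 60 of the 64 members. They were searched on both strands for the octamer ATTTGCAT, a binding site of OCT1, for the TATA box TATAAA, for the CCAAT box CCAAT and for AAACACA, a motif of H1 promoters called the H1 box. None of the 4 motifs contains another. The last 150 bases before the start are printed from 5′ to 3′ for 8 members. *H2BC14*, *H3C2*, *H4C4* and *H2BC26* had the lowest si-*DRAIC*2 signals relative to si-NC of all members above the level of presumed silent genes, *H2BC12* and *H2BC8* are H2B genes of bright signal with smaller differences, and *H1-4* and *H1-5* are the H1 genes of highest signal. Capitals mark the motifs on either strand, so that ATTGG and TTTATA stand for the CCAAT box and the TATA box read from the other strand.
*H2BC14*, chr6:27814872-27815021, plus strand: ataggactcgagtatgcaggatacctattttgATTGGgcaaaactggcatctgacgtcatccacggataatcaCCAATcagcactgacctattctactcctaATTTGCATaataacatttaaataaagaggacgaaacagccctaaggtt
*H2BC26*, chr1:228457953-228458102, plus strand: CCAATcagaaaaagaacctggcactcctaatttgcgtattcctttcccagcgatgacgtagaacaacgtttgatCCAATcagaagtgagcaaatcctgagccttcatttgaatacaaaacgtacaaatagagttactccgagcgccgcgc
*H2BC12*, chr6:27146859-27147008, minus strand: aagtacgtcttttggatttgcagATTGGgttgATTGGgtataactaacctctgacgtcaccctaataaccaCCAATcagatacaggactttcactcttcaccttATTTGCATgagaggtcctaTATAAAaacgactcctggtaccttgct
*H2BC8*, chr6:26216689-26216838, minus strand: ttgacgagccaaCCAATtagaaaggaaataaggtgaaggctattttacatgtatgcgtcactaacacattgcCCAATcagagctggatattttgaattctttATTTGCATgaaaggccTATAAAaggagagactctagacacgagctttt
*H3C2*, chr6:26032100-26032249, minus strand: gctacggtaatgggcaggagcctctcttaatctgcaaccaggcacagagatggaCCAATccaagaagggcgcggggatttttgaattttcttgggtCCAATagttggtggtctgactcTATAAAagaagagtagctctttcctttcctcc
*H4C4*, chr6:26189113-26189262, minus strand: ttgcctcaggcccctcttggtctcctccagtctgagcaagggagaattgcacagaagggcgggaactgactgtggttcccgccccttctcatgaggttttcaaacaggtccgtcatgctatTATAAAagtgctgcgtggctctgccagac
*H1-4*, chr6:26156179-26156328, plus strand: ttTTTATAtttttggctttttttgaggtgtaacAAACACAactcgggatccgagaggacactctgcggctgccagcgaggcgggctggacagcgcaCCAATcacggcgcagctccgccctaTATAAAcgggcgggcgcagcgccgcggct
*H1-5*, chr6:27867589-27867738, minus strand: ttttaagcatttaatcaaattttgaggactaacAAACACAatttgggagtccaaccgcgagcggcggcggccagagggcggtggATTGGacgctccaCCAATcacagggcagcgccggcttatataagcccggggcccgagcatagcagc

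The octamer was held by 14 of 17 H2B windows and by 8 of 13 H2A windows, but by none of the 9 H1, 8 H3 and 13 H4 windows. The H2A and H2B counts of a motif are not independent. H2A and H2B genes that start in opposite directions 215 to 248 bases apart have overlapping windows, so the same motif can count for both. The octamers of *H2AC1* and *H2BC1*, for example, are the same bases. In all 27305 genes with a window, 1.80% held it. In *H2BC14* and *H2BC8* it lay at −48 to −41 from the start, and in *H2BC12* at −46 to −39. The H1 box was held by 7 of 9 H1 windows, against 5.76% of all genes, and lay at −117 to −111 in both *H1-4* and *H1-5*. The CCAAT box was held by all H2A, H2B and H3 windows and by 3 of 13 H4 windows (all genes, 35.7%), and the TATA box by 40 of the 60 (all genes, 3264 of 27305). A match of letters is a description and does not show that a factor binds there.

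On the array, the SST-RMA log2 signals of the series had a median of 6.99 in si-*DRAIC*2 and 7.03 in si-NC. No row was paired with *DRAIC*, so the knockdown could not be checked on its target with these arrays. By RT-qPCR, the study reports lower *DRAIC* expression with this siRNA than with si-NC. Of the labelled cell type, the epithelial markers *EPCAM*, *KRT8*, *KRT18* and *CDH1* and 4 of 6 measured NE markers (*CHGA*, *CHGB*, *NCAM1* and *INSM1*) had signals above 11. The NE marker *SYP* had 8.55 in si-*DRAIC*2 and 8.46 in si-NC, and *ENO2* had 6.96 in si-*DRAIC*2 and 6.51 in si-NC. *ENO2* and the lung markers *NKX2-1* (6.42 in si-*DRAIC*2 and 5.98 in si-NC) and *NAPSA* (3.06 in si-*DRAIC*2 and 3.64 in si-NC) lay near or below the level of silent genes given next. Markers of leukocytes, fibroblasts and endothelial cells were below 6 on both arrays. In 497 rows of gene families presumed silent in this line, 95% had a mean signal of 6.06 or below, and this value is called the silent level here. Of the 64 members, 50 lay above it and 14 at or below it. Signals of different rows come from different probes and are not compared with each other as expression levels.

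Most histone genes had a lower signal in si-*DRAIC*2 than in si-NC, mostly by less than 1.5-fold. Of the 64 members, 54 (84.4%) had a difference below 0, against 51.3% of all rows. Their median difference in log2 signal, si-*DRAIC*2 minus si-NC, was −0.26, with quartiles of −0.40 and −0.11. Over all rows the median was −0.01, with quartiles of −0.25 and 0.21. Few of the members passed the 1.5-fold threshold of the study (0.58 on the log2 scale). Of the 64, 5 were lower (7.81%, against 6.26% of all rows) and none was higher (5.13% of all rows). By this threshold, then, the members were close to the background, and the pattern lies in the shared direction of many small differences. Copies of a histone gene are alike in sequence, and the probes of this array were not examined, so the members may share part of their signal and are not independent values.

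**Figure D1:**
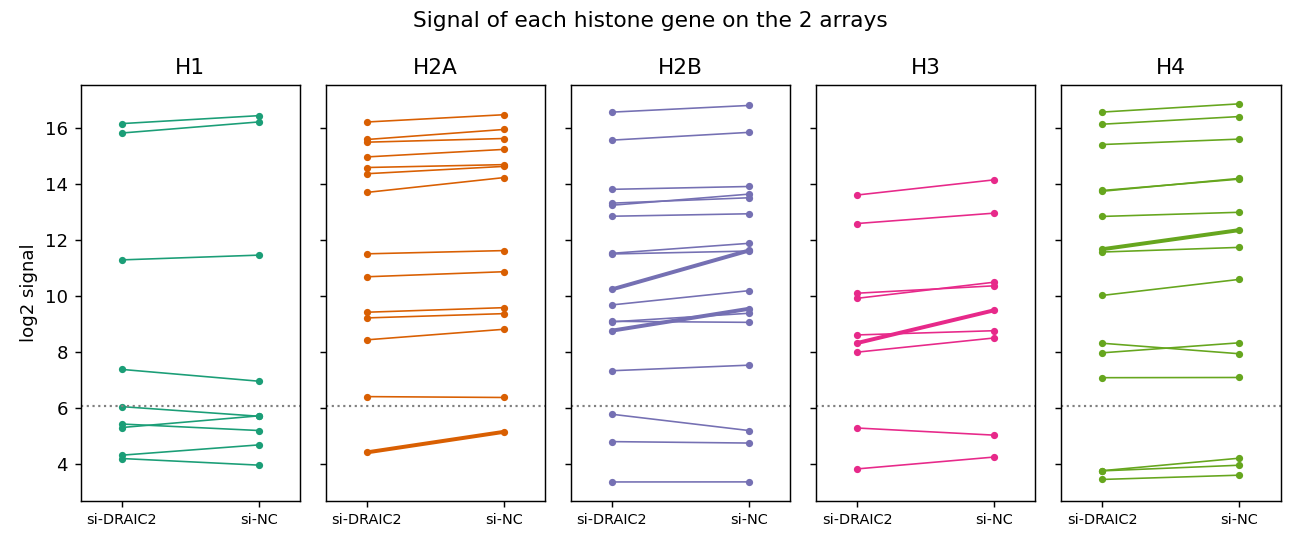
Log2 signal of each of the 64 histone genes on the si-DRAIC2 array (left points) and the si-NC array (right points), 1 panel per histone type. Thick lines are the 5 genes past 1.5-fold and the dotted line is the silent level of 6.06. Most lines above that level run upward to si-NC, and the exceptions include *H1-10* and *H4C9*.

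The shared direction was most regular where the signal was high. Of 49 members whose mean signal reached that of the median row, 46 had a difference below 0, against 51.2% of all such rows. All 20 members with a mean signal of 13 or above had a difference below 0, from −0.54 to −0.10 with a median of −0.27, whereas 39.5% of all 1521 rows of such signal did and their median was 0.06. None of these 20 passed 1.5-fold. The limit of 13 was chosen after the values were seen, so this count is a description only. Among the 14 members at or below the silent level, 8 differences were below 0 and 6 above, with a median of −0.08 and a range from −0.73 to 0.58. Differences of dim rows were also more scattered in the series as a whole, with an SD of 0.41 at or below the silent level and 0.25 at a mean signal of 13 or above.

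**Figure D2:**
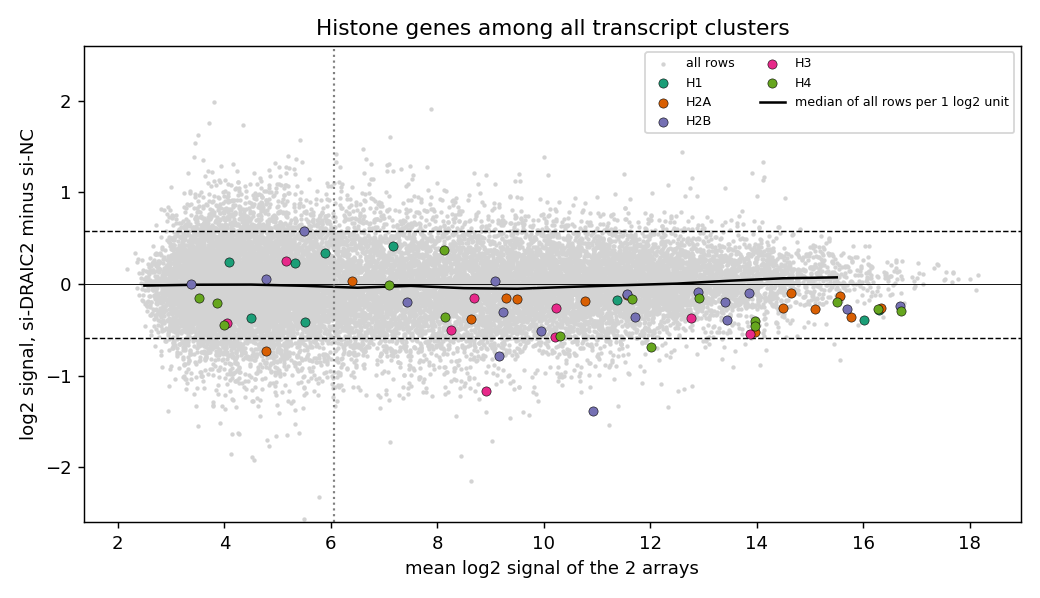
Difference in log2 signal (si-DRAIC2 minus si-NC) against the mean log2 signal of the 2 arrays, for all 21448 rows (grey) and the histone genes (colored by type). The black line is the median of all rows per log2 unit, dashed lines mark 1.5-fold and the dotted line the silent level. To the right of a mean signal of 13 all 20 histone genes lie below 0, while the line of all rows lies above it.

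H2B genes included the member with the lowest difference. *H2BC14* had a log2 signal of 10.24 in si-*DRAIC*2 and 11.63 in si-NC, a difference of −1.39 or 2.62-fold lower. *H2BC26*, a gene outside the major clusters, had 8.77 in si-*DRAIC*2 and 9.55 in si-NC and was 1.72-fold lower. The other 15 H2B genes lay within 1.5-fold. *H2BC12* and *H2BC18*, the H2B genes of highest signal, had 16.56 and 15.56 in si-*DRAIC*2 and 16.80 and 15.84 in si-NC, with differences of −0.24 and −0.28. *H2BC3* had the largest positive difference of all members, 0.58 (5.78 in si-*DRAIC*2 and 5.20 in si-NC), at a signal below the silent level and just under the threshold. Over the 17 genes the median was −0.20, and 14 differences were below 0.

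H3 genes had the lowest median of the types, −0.42, and 8 of 9 had a difference below 0. *H3C2* had a log2 signal of 8.32 in si-*DRAIC*2 and 9.49 in si-NC, which was 2.25-fold lower. *H3C1* (−0.57), *H3C11* (−0.54) and *H3C10* (−0.51) came close to the threshold without passing it. *H3C11* and *H3C7*, the H3 genes of highest signal, had 13.60 and 12.59 in si-*DRAIC*2 and 14.14 and 12.96 in si-NC. All 7 H3 genes above the silent level had a difference below 0. *H3C8*, with 5.29 in si-*DRAIC*2 and 5.04 in si-NC, had the sole positive difference and lay below the silent level. The order of the types by median was not tested, and the ranges of all 5 types overlap.

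H4 genes had a median of −0.27, and 14 of 15 had a difference below 0. *H4C4* had 11.67 in si-*DRAIC*2 and 12.35 in si-NC and was 1.61-fold lower, and *H4C1* had −0.57 (10.02 in si-*DRAIC*2 and 10.59 in si-NC). The H4 genes of highest signal, *H4C3* and *H4C5*, had 16.56 and 16.13 in si-*DRAIC*2 and 16.86 and 16.40 in si-NC. Their differences were −0.29 and −0.27. *H4C9* went the other way, with 8.32 in si-*DRAIC*2 and 7.94 in si-NC. *H4C16*, which lies on chromosome 12, apart from the other H4 genes, and encodes the same protein, had 7.09 on both arrays.

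H2A genes had a median of −0.22, and 13 of 14 had a difference below 0. The gene past 1.5-fold was *H2AC1*, a testis histone gene, with 4.42 in si-*DRAIC*2 and 5.16 in si-NC. Both values lie below the silent level, and with 32 added to both linear signals *H2AC1* no longer passed the threshold (−0.34). *H2AC14* and *H2AC11*, the H2A genes of highest signal, had 16.21 and 15.58 in si-*DRAIC*2 and 16.47 and 15.94 in si-NC, with differences of −0.26 and −0.36. *H2AC4* had the highest difference, 0.03.

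The 9 linker histone genes did not share a direction, but those that are replication-dependent and above the silent level were all lower in si-*DRAIC*2. Of the 5 replication-dependent H1 genes, *H1-5* had 15.82 in si-*DRAIC*2 and 16.21 in si-NC (−0.40), *H1-4* had 16.15 in si-*DRAIC*2 and 16.43 in si-NC (−0.28), and *H1-2* had 11.29 in si-*DRAIC*2 and 11.46 in si-NC (−0.17). *H1-1* (−0.42) and *H1-3* (0.23) lay below the silent level. The replication-independent *H1-10* was higher in si-*DRAIC*2, with 7.38 against 6.96 in si-NC, a difference of 0.42. The germline genes *H1-6* (0.34), *H1-8* (0.24) and *H1-7* (−0.37) were at or below the silent level. No H1 gene passed 1.5-fold, and the median was −0.17 over all 9 and −0.28 over the 5.

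**Figure D3:**
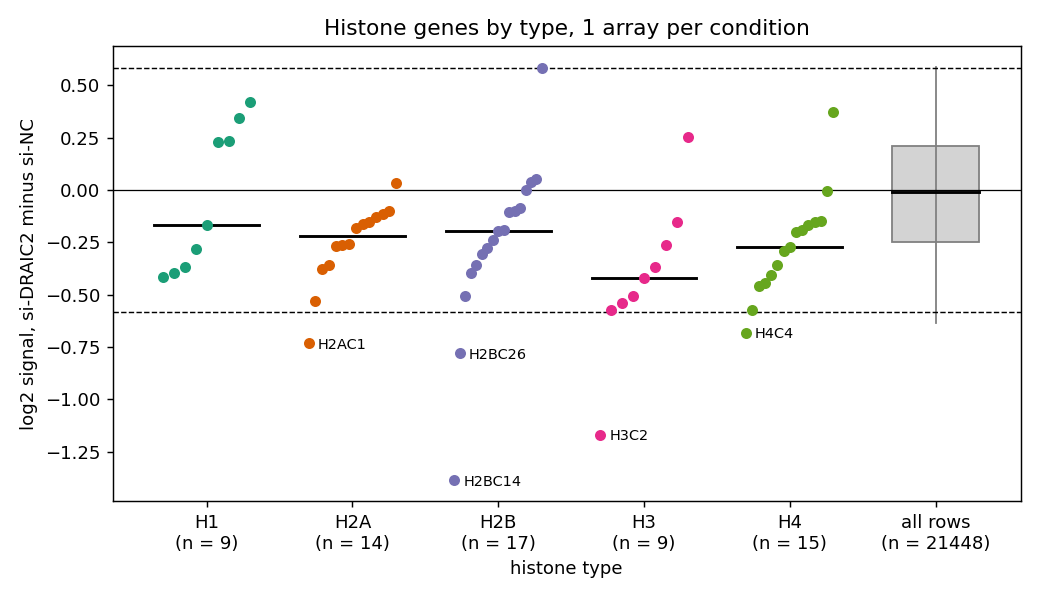
Difference in log2 signal (si-DRAIC2 minus si-NC) of each histone gene by type, with the median as a black bar and dashed lines at 1.5-fold. The last column shows all rows, with a box from the 25th to the 75th percentile and whiskers from the 5th to the 95th. The medians of the 5 types lie between −0.42 and −0.17, and *H2BC14* and *H3C2* lie apart below the rest of their types.

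By position, the members form groups along the chromosomes. On chromosome 6, which holds 49 of them, 41 differences were below 0 and the median was −0.24. On chromosome 1 all 11 were below 0, with a median of −0.28. The 2 members on chromosome 3, *H1-8* and *H1-10*, both had positive differences. Chromosome 1 holds near copies: *H4C14* and *H4C15* have identical promoter windows, and their differences were −0.46 and −0.41. Both have the same mean signal, 13.96779, and their probes were not examined, so they may not be separate measurements. *H4C11* and *H4C12* on chromosome 6 have windows that are 98.3% identical, with differences of −0.19 and −0.17. These were the pairs within a type whose windows were at least 95% identical, compared base by base without gaps. A copy whose annotated start is shifted would be missed by this comparison.

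Many H2A and H2B genes start head to head and share the stretch between their starts. Of the members, 9 pairs start in opposite directions within 1000 bases of each other, and in 8 of these pairs both genes had a difference below 0. As 84.4% of all 64 members had a difference below 0, members paired without regard to promoters would also mostly share this direction. *H2BC14* stood far from its partner. *H2AC14*, which starts 245 bases away, had −0.26 where *H2BC14* had −1.39. In *H2BC26* and *H2AC25*, 230 bases apart, the differences were −0.78 and −0.38, and in *H2BC13* and *H2AC13*, 244 bases apart, −0.51 and −0.13. In the other direction, *H2AC11* had −0.36 and *H2BC11* −0.19, and *H2AC8* had −0.27 and *H2BC8* −0.10. Little separated *H2BC4* (−0.31) and *H2AC6* (−0.18), *H2AC20* (−0.10) and *H2BC21* (−0.09), or *H2BC9* (−0.40) and *H3C7* (−0.37). In the pair with a positive value, *H2BC1*, a testis histone gene below the silent level, had 0.05 and its partner *H2AC1* had −0.73. Without replicates, the gap within a pair cannot be set against an error.

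**Figure D4:**
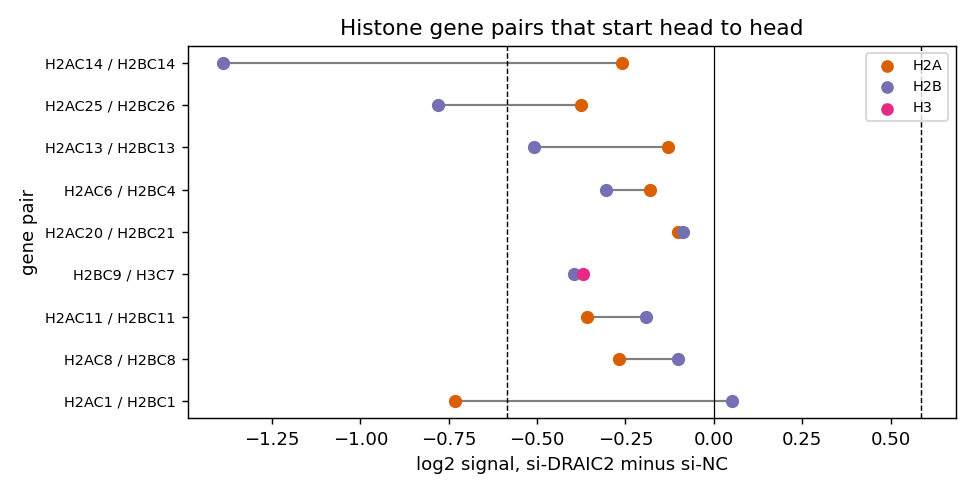
Difference in log2 signal (si-DRAIC2 minus si-NC) of both genes in each of the 9 head-to-head pairs, joined by a line, with dashed lines at 1.5-fold. Both points lie below 0 in 8 pairs, and the widest gap is that of *H2AC14* and *H2BC14*.

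The motifs were set beside the differences. The 14 H2B genes with the octamer had a median of −0.15, and the 3 without it, *H2BC5*, *H2BC13* and *H2BC26*, had −0.51. Of those with it, *H2BC1* (0.05), *H2BC3* (0.58) and *H2BC10* (−0.0023) lay at or below the silent level, while all without it lay above. *H2BC14* holds the octamer and the CCAAT box in the stretch printed, but no TATAAA there. Its window reaches past the start of *H2AC14*, 245 bases away. It thereby takes in the TATAAA that lies at −31 to −26 from the start of *H2AC14*. In H2A genes the medians were −0.22 with the octamer (8 genes) and −0.26 without (5 genes). Of the 8, *H2AC1* (−0.73) lay below the silent level. Windows of H2A genes can overlap that of a head-to-head H2B partner, so the octamer counted may be the partner's. The 7 H1 genes with the H1 box had a median of −0.28, and the others, *H1-10* and *H1-8*, had 0.42 and 0.24. Of those with the box, *H1-1* (−0.42), *H1-3* (0.23), *H1-6* (0.34) and *H1-7* (−0.37) lay at or below the silent level, as did *H1-8*. These groups are small and no test was made.

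Some replication-dependent genes are also known to make polyadenylated mRNA, mainly outside S phase. For 6 such members (*H1-2*, *H2AC6*, *H2BC4*, *H2BC5*, *H2BC12* and *H2BC21*) all differences were below 0, from −0.36 to −0.09 with a median of −0.21. None passed 1.5-fold. Their range lies within that of the other members.

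Histone variants that replace the canonical histones outside replication had differences in both directions. Of 13 measured variant genes, 5 lay at or below the silent level, and the 8 whose signal reached that of the median row had a median of 0.18. Over all 13, 8 differences were above 0 and 5 below (38.5%, against 51.3% of all rows). Their median was 0.06, and none passed 1.5-fold. With *H2AC25* (−0.38), *H2BC26* (−0.78) and *H4C16* (−0.0074), which are on the same list but are members here and were left out of that count, 8 of 16 were above 0 and 8 below, the median was 0.00058, and *H2BC26* was past 1.5-fold. *H3-5* (0.53), *MACROH2A2* (0.40), *H2AZ2* (0.32) and *H3-3B* (0.30, with 14.43 in si-*DRAIC*2 and 14.13 in si-NC) had positive values. *H2AZ1* (−0.47, with 14.66 in si-*DRAIC*2 and 15.12 in si-NC) and *H2AX* (−0.43), whose mRNA can end in a stem-loop, had negative ones. *CENPA*, the centromeric H3, had 0.06 and *MACROH2A1* −0.03. The difference between variants and members was not tested.

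Genes that drive the transcription of histone genes mostly had negative differences. Of 8 measured, 6 were below 0 and the median was −0.41. *CCNE2*, which encodes cyclin E2, an activator of the kinase that phosphorylates NPAT, was 2.13-fold lower, with 8.22 in si-*DRAIC*2 and 9.31 in si-NC. *CASP8AP2* (−0.55), a component of the histone locus body, *CCNE1* (−0.51), *HINFP* (−0.47), a factor of H4 promoters, *NPAT* (−0.35) and *CRAMP1* (−0.24), a regulator of H1 genes, lay within 1.5-fold. *CDK2* (0.01) and *GON4L* (0.10) were the others.

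Genes of histone mRNA processing went the other way. Of 16 genes, 12 had a difference above 0, with a median of 0.15, and 2 were more than 1.5-fold higher. *SLBP* had 10.38 in si-*DRAIC*2 and 9.71 in si-NC (1.59-fold), and *LSM10*, a subunit of the U7 snRNP, had 10.48 in si-*DRAIC*2 and 9.83 in si-NC (1.57-fold). The U7 subunit *LSM11* had 0.15 and *ZNF473*, a U7-associated zinc finger protein, 0.24. The list also holds genes that are not particular to histone mRNA. Among these were *SNRPB* (0.32), *SNRPD3* (0.31), *SNRPE* (−0.01), *SNRPF* (0.32), *SNRPG* (0.29) and *NCBP2* (−0.12), and their part in the median was not tested. Of 6 genes of histone mRNA decay, *TUT7*, a uridylyltransferase, was 1.69-fold lower, while *ERI1*, the exonuclease that binds the stem-loop, had 0.21 and *UPF1* −0.22. Among 24 histone chaperone genes, 12 had a difference above 0 and 12 below, with a median of 0.01, and *DNAJC9*, a chaperone of H3 and H4, was 1.89-fold lower. Of the 4 lists together, 2 of 54 genes were higher and 3 lower past 1.5-fold, against 5.13% and 6.26% of all rows.

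Genes of S phase were examined because the members are transcribed in that phase. Of 41 measured, 27 had a difference below 0 (65.9%, against 51.3% of all rows) and the median was −0.14. Past 1.5-fold were *CCNE2*, *TYMS* (−0.86), *E2F8* (−0.65) and *BLM* (−0.60), all lower, and *SLBP*, which was higher. The 4 lower genes are 9.76% of the list, against 6.26% of all rows. *BLM* no longer passed after the loess on mean signal (−0.56) or with 32 added to both linear signals (−0.55). *PCNA*, the sliding clamp of DNA polymerase, had 0.49, *RRM2* −0.17 and *MCM2* −0.09. In bulk RNA, fewer cells in S phase and less histone mRNA per cell cannot be told apart, and the part of S phase genes in the histone differences was not tested.

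**Figure D5:**
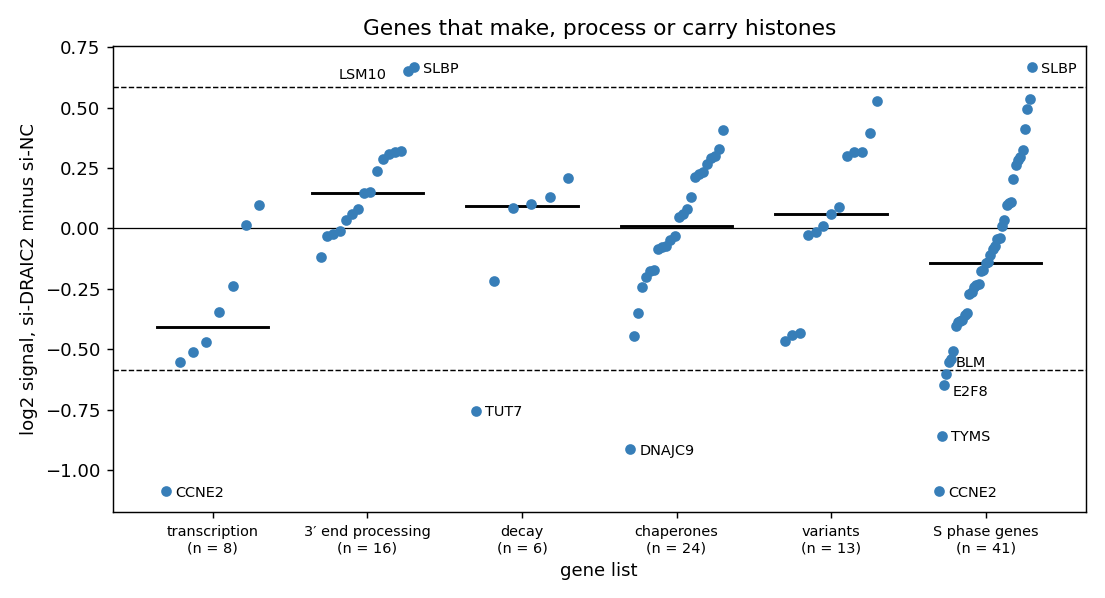
Difference in log2 signal (si-DRAIC2 minus si-NC) for genes of histone gene transcription, 3′ end processing, mRNA decay, chaperones, histone variants and S phase, with medians as black bars and dashed lines at 1.5-fold. Some genes stand in more than 1 list. The medians range from −0.41 for transcription to 0.15 for 3′ end processing.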

How the data were processed

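Total RNA of VMRC-LCD cells was labeled with biotin and hybridized to Human Clariom S arrays, 1 for si-*DRAIC*2 and 1 for si-NC. Per the study's methods, the authors computed the deposited log2 signals with the Transcriptome Analysis Console by SST-RMA, a method that corrects background, normalizes by quantiles and summarizes the probes of a transcript cluster. Its version is not given in the sources used here. Quantile normalization hides a change shared by all transcripts. Values were used as deposited.

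Rows were named through the platform annotation (3739 of 21448 have no symbol there), and the symbols of all 64 members equal those of the same gene IDs in RefSeq GRCh38.p14. The members and gene lists were chosen with earlier results of these data known. A gene is called higher or lower past the study's linear fold of 1.5. A test needs replicates and was not possible, and the number of arrays limits the precision. Named members were those past 1.5-fold and, of each type, the 2 of highest mean signal and those with the largest positive and negative differences; genes of the pathway were NPAT, SLBP, CASP8AP2, ZNF473, LSM10, LSM11, HINFP, CRAMP1 and those past 1.5-fold. Other named genes, the head-to-head pairs and the signal limit of 13 were chosen after their values were seen. Of genes with several promoter windows (4 members), the first listed was used. Proteins were not analysed here. Alternatives were a 2-fold threshold, the median of all rows set to 0, a loess on mean signal (span 0.3) subtracted, 32 added to both linear signals, filters on dim rows, other choices of members and, added after seeing the data, averaging of near copies. A value counts as moved beyond 1.5 times. Python 3.11.15, numpy 2.4.6, pandas 2.3.3, statsmodels 0.14.6 and matplotlib 3.10.9 were used.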

Additional observations from a re-analysis of the deposited data

How the results depend on the processing

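Of 142 recomputed values, 127 stayed within 1.5 times the reported one or stayed at 0. Among them was the median difference of all members under every alternative that was run, from −0.29 to −0.19. Some of the 127 could not move, such as the H2A, H2B, H3 and H4 medians when only H1 genes were left out. Nor could the H1, H2A, H2B and H3 medians when the near copies, all H4 genes, were averaged. With a 2-fold threshold, 2 members were lower (*H2BC14* and *H3C2*). Of the lists, 0 genes of 3′ end processing were higher, 0 decay genes and 0 chaperone genes were lower, and 1 S phase gene was lower (*CCNE2*) and 0 higher. The share of all rows past 2-fold was not computed, so these counts have no background beside them. With the median of all rows set to 0, and likewise after the loess, 1 member was higher, the dim *H2BC3*, and the chaperone median was 0.020 with the first and 0.0054 with the second. After the loess the variant median was 0.093. With 32 added to the linear signals, the chaperone median was −0.0011. Among rows at or above the median signal, the variant median was 0.18 and the chaperone median −0.031. Without the germline and replication-independent H1 genes, the H1 median was −0.28. The 5 lower members were the same under the median and loess settings, and 4 of them remained with the offset of 32, all but *H2AC1*. The averaging of genes that encode the same protein was not run, since proteins were not analysed here. No paired analysis was possible because each condition has 1 array. Low signal limits what can be said of the 14 members at or below the silent level.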
